A study of Mus musculus with 5 samples.

Results

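Potassium channel subunits were followed across the hearts of 5 wild-type mouse embryos at E12.5, each measured on its own Affymetrix mouse 430A array. The genes were chosen by a name rule, with earlier results of these data known. It took every gene whose probe sets carry a single symbol in the platform annotation that starts with Kcn and a further letter. This gave 62 genes with 90 probe sets, of 12393 genes with 20380 probe sets in the table. The embryos were on a 129P2/OlaHsd background that had been backcrossed to C57BL/6 for 2 generations, and no treatment, mutation or second condition is given in the labels. The hearts were dissected whole, so myocardium, endocardium, epicardium, cushion cells and blood within them were measured together. The labels number them 6 to 10, and these numbers name the hearts here. The labels do not say whether they came from 1 litter, and all spreads below are spreads between these samples.

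Potassium channels let potassium leave the cell, which repolarises cardiomyocytes after each beat and holds their resting potential. Voltage-gated channels and the inward rectifiers of the Kcnj family carry most of the repolarising and resting currents of the mature heart. Tandem-pore channels of the Kcnk family carry background currents, and calcium-activated channels couple the membrane to calcium. Accessory subunits such as those of the Kcne and Kcnip families form no pore and change the gating and surface density of the pore-forming alpha subunits. In the embryonic heart the resting potential is less negative than in the adult, and many of these currents are still being established.

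Few of these genes gave signal above background in the embryonic heart. Each level is log2(intensity + 16), and a mean ± SD runs over the 5 hearts. The background of an array is the 95th percentile of 64 measured genes of other tissues (lens, testis and pancreas among them) and lay between 5.26 and 5.45. Detected stands for a gene that exceeded background in all 5 hearts. By this rule 7 of 62 potassium channel genes were detected (11.3%), against 51.3% of all 12393 genes. A further 13 (21.0%) exceeded background in some hearts only, against 14.4% of all genes, and 42 (67.7%) in no heart, against 34.2%. The detected genes were Kcne1, Kcne3, Kcnk3, Kcnh2, Kcnn4, Kcnj8 and Kcnh3. Each level rests on 1 probe set, so a low level does not show that a gene was silent, and in whole hearts fewer cells of a type and less RNA per cell cannot be told apart. Probe sets differ in how strongly they respond, so the levels of different genes were not ranked. The count depends on the background: it was 3 at the 99th percentile, 11 at the 90th percentile and 15 when 3 hearts sufficed.

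**Figure D1:**
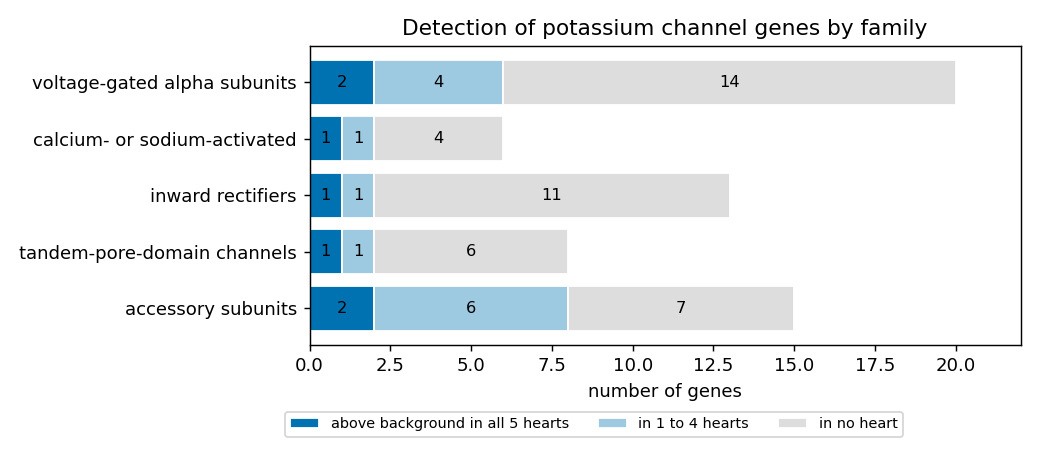
Number of potassium channel genes by family (bars, horizontal axis in genes), divided into genes above background in all 5 hearts, in 1 to 4 hearts and in no heart. Each family has 1 or 2 genes detected in all hearts, and the accessory subunits have the most genes above background in some hearts, 6 of 15.

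The detected genes were spread over all families. They made up 2 of 20 voltage-gated alpha subunits, 1 of 6 calcium- or sodium-activated alpha subunits, 1 of 13 inward rectifiers, 1 of 8 tandem-pore channels and 2 of 15 accessory subunits. Accessory subunits held 6 of the 13 genes that exceeded background in some hearts. Among the inward rectifiers 11 of 13 exceeded it in no heart. A list of 24 genes of known cardiac potassium currents was written with earlier results of these data in view, and 23 of them were measured here. Of these, 5 were detected (21.7%), 6 exceeded background in some hearts and 12 in none. Over all 12393 genes the shares were 51.3% detected, 14.4% above background in some hearts and 34.2% in none.

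The hearts carried cardiomyocyte signal throughout. Of 6 cardiomyocyte markers, 5 were detected, including cardiac troponin T, Tnnt2, at 12.78 to 13.15, and the transcription factor gene Nkx2-5 exceeded background in 4 hearts. Detected too were 3 of 4 smooth muscle, 3 of 5 endothelial, 3 of 4 epicardial and 5 of 5 red cell markers, with 1 of 6 for neurons, 0 of 2 for glia and 1 of 5 for macrophages and leukocytes. The neuronal genes Elavl4 and Snap25, the glial genes Sox10 and Foxd3, and the endothelial genes Pecam1 and Cdh5 exceeded background in no heart. Pearson's r between hearts over 12393 genes, as a description across genes, lay between 0.965 and 0.983. The Gapdh control probe sets gave 3' signal 5.69 times that of the 5' end in heart 7, against 2.50 to 3.55 times elsewhere. The actin controls gave 4.27 times in heart 7 and 4.48 times in heart 8, against 3.20 to 3.67 times in hearts 6, 9 and 10. Of all detected genes, 30.6% were highest and 29.0% lowest in heart 7, the largest share of any heart in both directions.

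The slow delayed rectifier of the heart is formed by the alpha subunit Kcnq1 with the accessory subunit Kcne1. Kcne1 had levels of 7.03, 7.27, 6.96, 7.11 and 7.01 in hearts 6 to 10 (7.08 ± 0.12, n = 5). All 5 values lay at least 1.51 above the background of their array, and the coefficient of variation of the intensity was 9.62%, the smallest among the 7 detected genes. Kcnq1 itself stood close to background, with 5.47, 5.33, 5.78, 5.49 and 5.24 (5.46 ± 0.21). It exceeded background in hearts 6, 8 and 9 and fell short of it in hearts 7 and 10.

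Kcne3, an accessory subunit that holds Kcnq1 channels open in epithelia and also binds other voltage-gated channels, was the second detected member of its family. Its levels were 7.06, 7.10, 7.16, 7.51 and 7.19 in hearts 6 to 10 (7.20 ± 0.18, n = 5), at least 1.65 above background. Heart 9 was highest and the other hearts lay within 0.14 of each other. Kcne1l, the X-linked member of the family, had 5.79, 5.02, 5.81, 5.48 and 5.36 and exceeded background in every heart but heart 7. Kcne2, which modulates Kcnh2 and Kcnq1 channels, had 5.56, 4.74, 5.54, 5.30 and 5.24 and exceeded background in hearts 6 and 8. Kcne4, an inhibitory subunit, had 5.25, 5.18, 5.52, 4.95 and 5.10 and exceeded background in heart 8 alone. All 5 Kcne genes measured here thus exceeded background in at least 1 heart, against 65.8% of all genes.

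Kcnh2 encodes the alpha subunit of the rapid delayed rectifier, which ends the action potential in the embryonic mouse heart and is a frequent site of drug-induced arrhythmia. Its levels were 5.72, 5.98, 6.13, 6.09 and 5.98 in hearts 6 to 10 (5.98 ± 0.16, n = 5), at least 0.47 above background. The hearts differed by 0.41 at most. Kcnh3, a related channel gene best known from forebrain neurons, had 6.04, 5.86, 6.32, 5.52 and 5.30 (5.81 ± 0.40). In heart 10 it lay only 0.044 above background, the narrowest margin of the 7 detected genes. Of the neuronal markers, Stmn2 was detected at 5.94 to 6.68, and Tubb3, Gap43 and Nefl exceeded background in 2, 4 and 4 hearts. The summed intensity of the 6 neuronal markers ranged from 157.6 in heart 7 to 215.1 in heart 9, while Kcnh3 was highest in heart 8, and the part of nerve cells in the Kcnh3 signal was not tested.

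**Figure D2:**
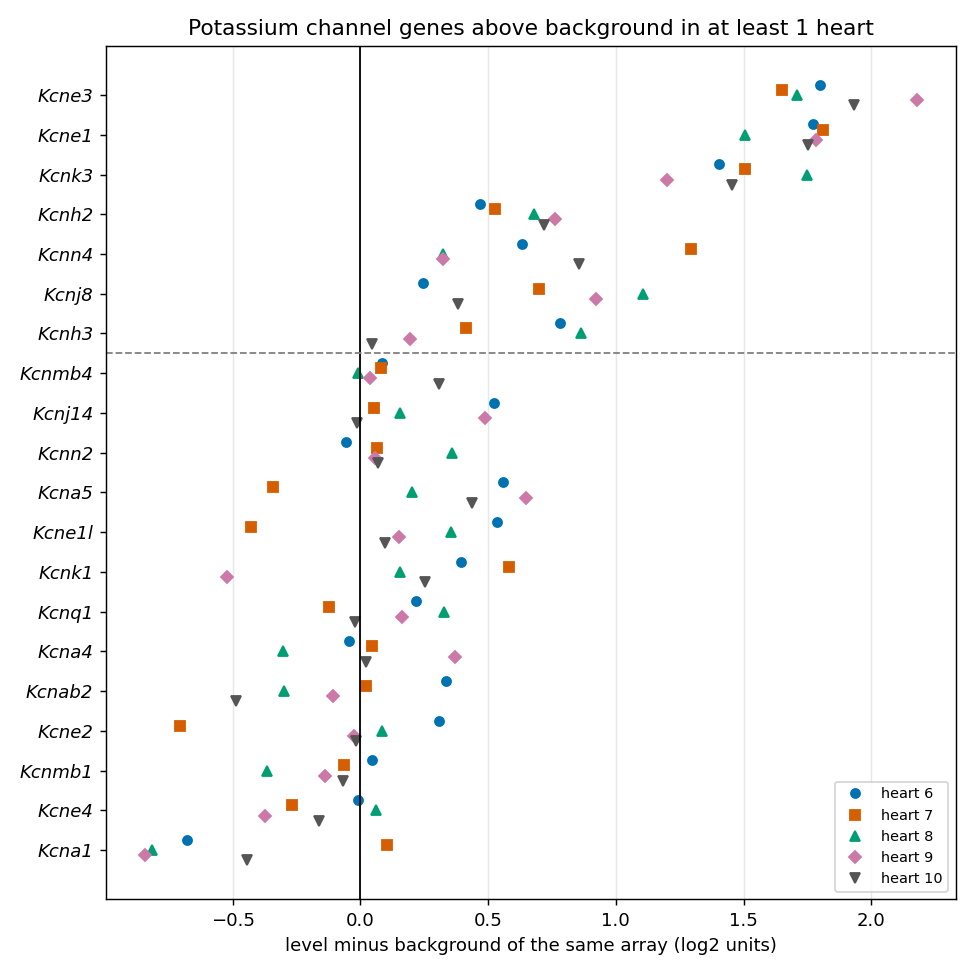
Level minus the background of the same array (horizontal axis, log2 units) for the 20 potassium channel genes above background in at least 1 heart, with 1 symbol per heart. The 7 genes above the dashed line lie right of 0 in all 5 hearts, and Kcnh3 in heart 10 is closest to 0 among them.

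Genes of the transient outward and ultrarapid currents, which shape early repolarisation in adult mouse ventricle and atrium, gave little signal. Kcna5, the alpha subunit of the ultrarapid delayed rectifier, had 5.82, 5.11, 5.65, 5.97 and 5.70 in hearts 6 to 10 (5.65 ± 0.33, n = 5). It exceeded background in every heart but heart 7. Kcna4, the alpha subunit of the slowly recovering transient outward current, had 5.21, 5.50, 5.15, 5.70 and 5.28 and exceeded background in hearts 7, 9 and 10. Kcnd2 and Kcnd3, the alpha subunits of the fast transient outward current, exceeded background in no heart. Kcnd2 lay between 4.73 and 4.91, and its other 2 probe sets, at 4.45 to 4.85 and 4.05 to 4.83, also exceeded background in no heart. Kcnd3 had 4.79, 4.31, 5.29, 4.15 and 4.69. Kcnip2, the accessory subunit that brings these channels to the surface, lay between 4.17 and 4.99 and exceeded background in no heart by either of its 2 probe sets. Below background the order of values carries no information on expression.

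The other voltage-gated alpha subunits and the other Kcnab and Kcnip accessory genes gave signal near background or below it. Kcna1, known from axons, exceeded background in heart 7 alone, at 5.56, with 4.48 to 4.82 elsewhere. Kcnab2, a cytoplasmic beta subunit of Kcna channels, had 5.59, 5.47, 5.15, 5.22 and 4.77 and exceeded background in hearts 6 and 7, while its second probe set exceeded it in none. Of the alpha subunits, Kcna2, Kcna3, Kcna6, Kcna7, Kcnc1, Kcnc4, Kcnd1, Kcnh1, Kcnh7, Kcnq5, Kcns1 and Kcns2 exceeded background in no heart, as did the accessory genes Kcnab1, Kcnab3, Kcnip1, Kcnip3 and Kcnip4.

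**Figure D3:**
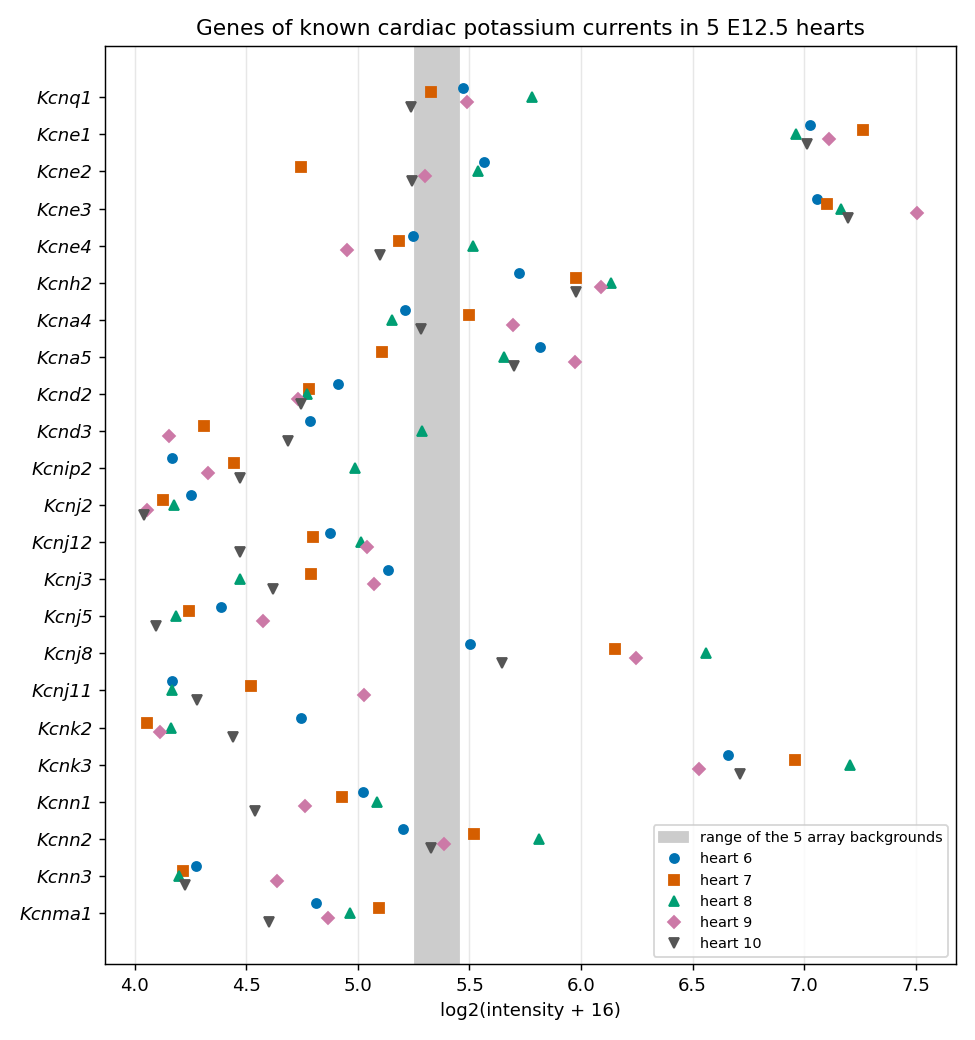
Level as log2(intensity + 16) (horizontal axis) of 23 genes of known cardiac potassium currents, with 1 symbol per heart and the range of the 5 array backgrounds, 5.26 to 5.45, in grey. Kcne1, Kcne3, Kcnh2, Kcnj8 and Kcnk3 lie right of the grey band in all hearts, while the inward rectifier genes Kcnj2, Kcnj12, Kcnj3, Kcnj5 and Kcnj11 lie left of it.

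Kcnj8 was the one inward rectifier detected. It encodes a pore subunit of ATP-sensitive potassium channels, which open when cellular ATP falls and which are known from vascular smooth muscle and pericytes as well as myocardium. Its levels were 5.50, 6.15, 6.56, 6.25 and 5.64 in hearts 6 to 10 (6.02 ± 0.44, n = 5). Hearts 6 and 10 were low and heart 8 was high, and every value was at least 0.25 above background. Kcnj11, the other pore subunit of these channels, exceeded background in no heart and lay between 4.17 and 5.03. The regulatory sulfonylurea receptor Abcc9, the usual partner of Kcnj8, was detected with 6.70, 6.57, 5.61, 7.36 and 7.19 (6.69 ± 0.69), and limma's variance test did not call it (adjusted p = 0.842). Heart 8, highest for Kcnj8, was lowest for Abcc9. Abcc8, the receptor best known from pancreatic beta cells, had 5.08, 5.66, 5.41, 5.42 and 5.33 and exceeded background in hearts 7, 9 and 10. The summed intensity of the 4 smooth muscle markers ranged from 3393 in heart 10 to 3719 in heart 9, and their part in the Kcnj8 signal was not tested.

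Both subunits of the ventricular resting current and both subunits of the channel opened by acetylcholine exceeded background in no heart. Kcnj2, the main subunit of the ventricular resting current, had 4.25, 4.12, 4.17, 4.05 and 4.04 (4.13 ± 0.09, n = 5), a mean intensity of 1.53 ± 1.08. Kcnj12, a second subunit of that current, lay between 4.47 and 5.04. Kcnj3 and Kcnj5, which together form the muscarinic potassium channel of atrium and pacemaker cells, lay between 4.47 and 5.13 and between 4.09 and 4.58. Kcnj14, a further strong rectifier, had 5.78, 5.51, 5.61, 5.81 and 5.25 and missed background in heart 10 by 0.014. Without heart 10 it was detected, which brought the inward rectifiers to 2 genes. Kcnj1, Kcnj4, Kcnj6, Kcnj9, Kcnj10 and Kcnj15, known from kidney, brain and glia, exceeded background in no heart, by any of their probe sets.

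Kcnk3, an acid-sensitive background channel of cardiomyocytes and vascular smooth muscle, was the one tandem-pore gene detected. It had 6.66, 6.96, 7.20, 6.53 and 6.71 in hearts 6 to 10 (6.81 ± 0.27, n = 5), at least 1.20 above background. This rests on 1 of its 3 probe sets. A second probe set had 5.50, 4.94, 5.16, 5.57 and 5.21 and exceeded background in 2 hearts, and the third lay between 4.11 and 4.49 and exceeded it in none. Kcnk1, a widely expressed weak inward rectifier of the same family, had 5.65, 6.03, 5.61, 4.80 and 5.51 and exceeded background in every heart but heart 9, while its second probe set did so in none. Kcnk2, the stretch-activated channel, lay between 4.05 and 4.74. Kcnk2, Kcnk4, Kcnk5, Kcnk7, Kcnk10 and Kcnk13 exceeded background in no heart. Without heart 9 the tandem-pore count was 2, with Kcnk1 added.

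Kcnn4 was the one calcium-activated gene detected. It encodes the intermediate-conductance channel of red cells, where it is known as the Gardos channel, and of lymphocytes and macrophages. Its levels were 5.89, 6.75, 5.78, 5.65 and 6.12 in hearts 6 to 10 (6.04 ± 0.43, n = 5). Heart 7 was highest, at an intensity of 91.4 against a mean of 52.2 ± 23.0 over the 5 hearts. Heart 7 is also the array with the Gapdh control ratio of 5.69 and with the largest share of genes at either extreme, and their part in the Kcnn4 difference was not tested. The second probe set of Kcnn4 had 4.29, 5.58, 4.15, 5.14 and 4.66, and it too was highest in heart 7, the only heart in which it exceeded background. With its probe sets averaged, Kcnn4 was no longer detected. The variance test described below did not call Kcnn4 (unadjusted p = 0.115, adjusted p = 0.960 by limma's variance test). When limma's variance test was run on every probe set, the second probe set of Kcnn4 had an unadjusted p under 0.05. It was not called after adjustment, and the lowest adjusted p of the 90 potassium channel probe sets was 0.960.

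Red cell genes were also high in heart 7. Of 5 red cell markers, 4 had their highest level there and Hbb-y had it in heart 8. For Alas2, of erythroid haem synthesis, this was 11.34 against 8.96 to 10.50 elsewhere, and for Slc4a1, the red cell anion exchanger, 11.00 against 9.48 to 9.68. The summed intensity of the 5 markers was 21551 in heart 7, 20548 in heart 8 and 13744 to 14420 in hearts 6, 9 and 10. Hbb-y alone gave 11161.5 of the sum in heart 8. Alas2 at 10.50 and Hba-x at 12.81 were next highest there after heart 7. Slc4a1 at 9.61 and Klf1 at 5.77 in heart 8 lay within the values of hearts 6, 9 and 10. Kcnn4 in heart 8 lay among the low values. The macrophage gene Csf1r was highest in heart 7 as well, at 8.99 against 7.68 to 8.82. The summed intensity of 5 macrophage and leukocyte markers was 571.8 there against 259.5 to 512.0, but Csf1r alone gave 493.4 of the 571.8. Cd68 was also highest in heart 7 but ranged over only 0.12, and Fcgr1 was highest in heart 9. Ptprc and Cx3cr1 exceeded background in no heart. Neither cell type's part in the Kcnn4 difference was tested.

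**Figure D4:**
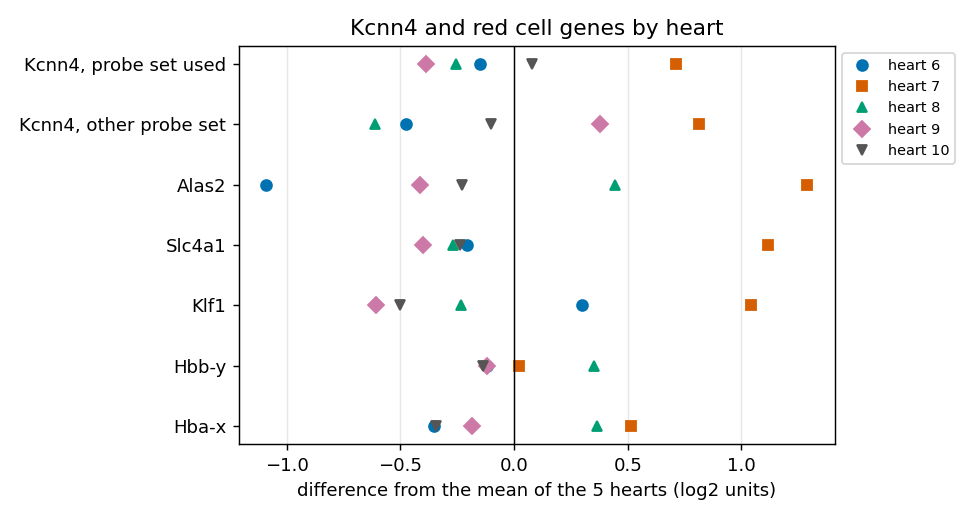
Difference of each heart from the mean of the 5 hearts (horizontal axis, log2 units) for both Kcnn4 probe sets and 5 red cell genes, with 1 symbol per heart. Heart 7 lies furthest right in both Kcnn4 probe sets and in Alas2, Slc4a1, Klf1 and Hba-x, while heart 8 does so in Hbb-y.

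The remaining calcium-activated channels gave signal near background or below it. Kcnn2, a small-conductance channel of atrial myocytes, had 5.20, 5.52, 5.81, 5.38 and 5.33 (5.45 ± 0.23, n = 5) and missed background in heart 6 by 0.055. Without heart 6 it was detected, which brought this family to 2 genes. Kcnn1, Kcnn3, Kcnu1 and the large-conductance alpha subunit Kcnma1 exceeded background in no heart. Kcnma1 lay between 4.60 and 5.10. Its accessory subunit Kcnmb4 had 5.34, 5.53, 5.44, 5.37 and 5.57 and missed background in heart 8 by 0.0094. Kcnmb1, the smooth muscle subunit of the same channel, exceeded background in heart 6 alone and lay between 5.09 and 5.39, and Kcnmb2 did so in no heart.

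No potassium channel gene was called more variable between hearts than genes of similar level. Limma's variance test compares a gene's variance over hearts with a prior variance that follows its mean level, adjusted by Benjamini-Hochberg over all genes. It called 0 of 62 potassium channel genes, against 5 of 12393 genes, or 0.0403%. At an unadjusted p under 0.05 it named 1 of 62, Kcna3 (unadjusted p = 0.0296, adjusted p = 0.960), against 4.45% of all genes. Kcna3, a channel gene of lymphocytes, read 5.31 in heart 8 against 4.12 to 4.14 elsewhere, all below background. The prior was estimated from the same arrays, so the test is blind to variation that all genes of a level share. By Dixon's ratio 7 of the 62 genes had a single heart far from the others (11.3%), against 7.56% of all genes, and all 7 were above background in no heart. Over all 6361 detected genes the share was 6.38%.

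Detected potassium channel genes varied about as much as other detected genes of their level. The median SD of the 7 genes was 0.27, with a range from 0.12 for Kcne1 to 0.44 for Kcnj8. It was 0.24 over all 6361 detected genes, and 0.26 over the 2477 of these whose mean lay in the range of the 7, from 5.81 to 7.20. Kcne1, Kcnh2 and Kcne3 formed the stable end, with SDs of 0.12, 0.16 and 0.18, whereas Kcnh3, Kcnn4 and Kcnj8 had 0.40, 0.43 and 0.44. Heart 8 was the highest heart for 4 of the 7 genes (Kcnh2, Kcnh3, Kcnj8 and Kcnk3), against 21.3% of all detected genes. Heart 7 was highest for Kcne1 and Kcnn4, or 2 of 7, against 30.6% of all detected genes. Among the 42 genes above background in no heart, heart 8 was highest for 18, against 29.8% of all such genes. The arrays of hearts 7 and 8 both had a background of 5.45, and heart 7 was highest for 7 of the 42, against 25.8% of all such genes. In hearts 6 to 10, 16, 14, 15, 14 and 13 of the 62 genes exceeded background, in that order, or 21.0% to 25.8%, against 56.5% to 60.1% of all genes.

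Other genes of potassium handling gave signal more widely. Of 38 listed genes that are no channel subunits of the families above, 26 were measured and 19 of these were detected, against 51.3% of all genes. All 4 measured subunits and regulators of the sodium-potassium pump were detected, with the beta subunit Atp1b1 at 10.68 ± 0.42, Atp1b2 at 5.63 ± 0.18 and Atp1b3 at 8.88 ± 0.10 (n = 5 each). So were 3 of 4 cation-chloride cotransporters. Slc12a2, which brings sodium, potassium and chloride into the cell, read 5.53 in heart 7 against 7.19 to 7.41 elsewhere (unadjusted p = 0.00199, adjusted p = 0.528 by limma's variance test). The Gapdh control ratio of 5.69 fell in the same heart, which was lowest for 29.0% of all detected genes, and its part in the low value was not tested. Slc12a4, a potassium-chloride exporter, was detected at 5.84 ± 0.13, and Slc12a5, the neuronal exporter, in no heart.

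Among accessory and anchoring proteins 5 of 8 were detected, including Akap9, which tethers the kinase that regulates Kcnq1 channels, at 8.20 ± 0.19, and the caveolar protein gene Cav3 at 7.58 ± 0.26 (n = 5 each). Dpp6, an accessory subunit of Kcnd channels, exceeded background in no heart, as did Kcnd2, Kcnd3 and Kcnip2. All 6 kinases and ligases that set channel density were detected, among them Sgk1 at 6.19 ± 0.40, Nedd4 at 10.25 ± 0.30 and Nedd4l at 7.20 ± 0.12. Of the hyperpolarisation-activated channels, Hcn2 and Hcn3 were measured and exceeded background in no heart. Of the sulfonylurea receptors, Abcc9 was detected and Abcc8 exceeded background in some hearts, as given above.

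Promoter sequence was available for 50 of the 62 genes, from RefSeq on build GRCm38.p6. The dinucleotide CG, which reads the same on both strands, was counted in the 250 bases before the start of transcription, with the windows of a gene averaged. Over all 32851 windows of this length 92.1% held at least 1 CG, and the median was 6. These windows were counted singly and were not limited to measured genes. Averaged per gene, the median was 13.5 over 9882 measured genes and 9 over the 50 genes. Sequences are shown for 3 detected genes, Kcnh2, Kcnj8 and Kcnn4, and for Kcnd2, a cardiac gene above background in no heart with a window rich in CG. They were chosen after their values were seen. Each is written 5′ to 3′ on the strand of the gene, with CG in capitals. The windows lie at chr5:24329592-24329841 (minus strand) for Kcnh2, chr6:142571615-142571864 (minus strand) for Kcnj8, chr7:24370013-24370262 (plus strand) for Kcnn4 and chr6:21215096-21215345 (plus strand) for Kcnd2.
Kcnh2: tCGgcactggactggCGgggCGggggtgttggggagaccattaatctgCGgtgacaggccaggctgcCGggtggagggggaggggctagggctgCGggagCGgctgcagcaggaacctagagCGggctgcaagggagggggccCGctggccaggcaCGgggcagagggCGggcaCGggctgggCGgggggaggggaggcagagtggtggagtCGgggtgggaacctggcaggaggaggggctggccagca
Kcnj8: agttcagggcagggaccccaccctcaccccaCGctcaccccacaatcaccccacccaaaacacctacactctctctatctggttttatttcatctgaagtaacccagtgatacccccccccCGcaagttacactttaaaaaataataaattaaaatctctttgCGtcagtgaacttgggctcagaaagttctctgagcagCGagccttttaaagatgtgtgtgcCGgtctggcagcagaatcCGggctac
Kcnn4: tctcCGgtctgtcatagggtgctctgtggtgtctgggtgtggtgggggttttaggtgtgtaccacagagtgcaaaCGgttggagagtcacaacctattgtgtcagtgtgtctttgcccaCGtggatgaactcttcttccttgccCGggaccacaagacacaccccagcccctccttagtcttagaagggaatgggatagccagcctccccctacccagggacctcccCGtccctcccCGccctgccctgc
Kcnd2: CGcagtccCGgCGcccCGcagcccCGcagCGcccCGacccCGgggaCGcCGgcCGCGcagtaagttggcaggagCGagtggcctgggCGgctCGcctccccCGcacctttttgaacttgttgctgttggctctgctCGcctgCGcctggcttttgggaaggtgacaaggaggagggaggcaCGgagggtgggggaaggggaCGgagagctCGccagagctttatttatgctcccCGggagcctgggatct

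The window of Kcnh2 held 14 CG, that of Kcnj8 6, that of Kcnn4 6 and that of Kcnd2 22. Over the 4 detected genes with a window the median was 6.25 (range 6 to 14), over 9 genes above background in some hearts it was 7 (range 0 to 43), and over 37 genes above background in no heart it was 10 (range 1 to 35). Over all measured genes the order ran the other way, with medians of 17 for 5202 detected genes, 14 for 1425 above background in some hearts and 6 for 3255 above background in none. With 4 detected potassium channel genes this is a description of these windows and no test was made. The letters TATAAA, searched on both strands, occurred in a window of 1 of the 50 genes, counted per gene. They occurred in 12.4% of all windows of this length, counted per window and not limited to measured genes, so the shares are not directly comparable.

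**Figure D5:**
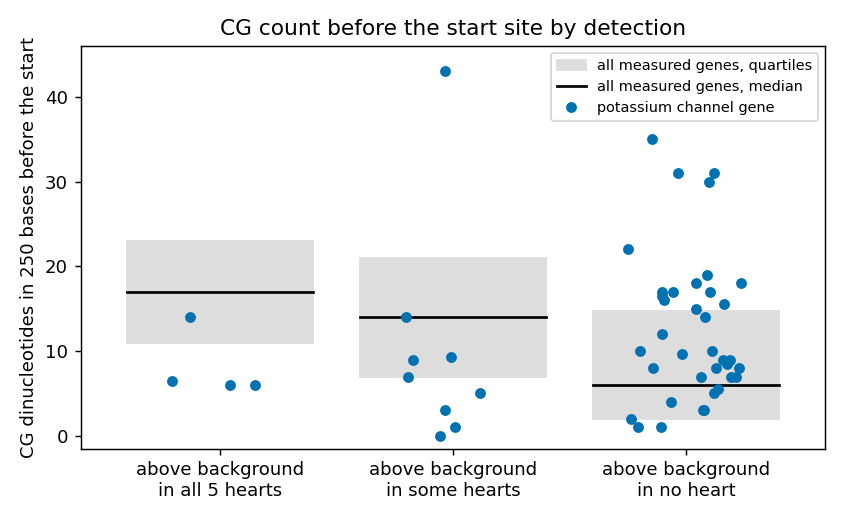
CG dinucleotides in the 250 bases before the start of transcription (vertical axis) for 50 potassium channel genes (points, spread sideways for visibility), by detection, over the quartiles (grey) and medians (lines) of all measured genes. The 4 detected potassium channel genes lie at 6 to 14, below the median of 17 for all detected genes, while the 37 genes above background in no heart have a median of 10, above the 6 of all such genes.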

How the data were processed

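From each heart, 10 ng of RNA went into WT-Ovation Pico amplification and biotin labelling, as the labels' protocols state. The authors deposited 1 linear intensity per probe set and array. Per the submitters' processing notes they used GCOS, whose version, algorithm and settings were not given in the sources used here. Every array had a 2% trimmed mean of 150.1, and array medians lay between 27.1 and 30.4. The number of arrays limits the precision.

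The table holds 22690 probe sets: 20393 with a single symbol, 691 with several, and 1606 that the platform annotation does not list. Without controls, 20380 were used. Arrays were brought to the same trimmed mean and values taken as log2(intensity + 16), which understates differences of weak genes. The probe set of highest mean stood for its gene. Entrez numbers matched all 62 potassium channel genes to GRCm38.p6. Background came from 64 measured of 70 listed off-tissue genes, 2 of which exceeded it in all hearts. The variance test (R 4.3.3, limma 3.58.1) used 4 degrees of freedom per gene and a robust prior with a trend (12.06 degrees of freedom). It was adjusted over genes by Benjamini-Hochberg at 0.05 and was tested on simulated data. Those data followed the test's own model, with shifts larger than the range of any of the 62 genes. They do not show how often it calls smaller differences. With 1 group there was no contrast.

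The genes and lists were chosen with earlier results of these data known. Values are given for detected genes, for a list of genes of cardiac currents, for genes with a single heart far from the others, for those above background in some hearts and for up to 3 genes of each further list. Alternatives were arrays unscaled or quantile normalized, offsets of 1 and 64, averaged probe sets, types _x_at and _s_at left out, each heart left out, other background percentiles, 3 hearts sufficing, and other variance priors, filters and probe-set-level testing. A background list without Prm1, Pomc and Abca4 was added after the data were examined.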

Additional observations from a re-analysis of the deposited data

Results flagged for a closer look

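Dixon's ratio sets the distance of the most extreme heart from its neighbour against the full range of the 5 values. It was computed for 62 potassium channel genes and 26 other measured genes of potassium handling, and chance alone marks about 1 in 20 of such groups. It exceeded its critical value of 0.71 in 7 of the 62 genes (11.3%), against 7.56% of all 12393 genes, and all 7 were above background in no heart. None of the 7 detected potassium channel genes was among them, against 6.38% of all 6361 detected genes. Heart 8 stood apart in 5 of the 7 genes above the critical value.

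Kcna3 was high in heart 8, at 5.31 against 4.12 to 4.14 elsewhere. The same heart was high for Kcns1, at 4.76 against 4.08 to 4.19, for Kcns2, at 4.70 against 4.02 to 4.19, and for Kcnip3, at 4.84 against 4.05 to 4.12. Kcnj1 was instead lowest in heart 8, at 4.24 against 4.81 to 4.87. Kcnd2 was high in heart 6, at 4.91 against 4.73 to 4.78, and Kcnn3 in heart 9, at 4.64 against 4.20 to 4.28. Further probe sets of Kcnj1, Kcnip3 and Kcnd2 did not repeat these patterns. That of Kcnj1 was highest in heart 8, at 4.37, and that of Kcnip3 in heart 6, at 4.32. The other probe sets of Kcnd2 were highest in heart 10, at 4.85 and 4.83. Kcna3, Kcns1, Kcns2 and Kcnn3 have 1 probe set each. All of these values lay below background. Of the other potassium handling genes, 3 exceeded the critical value, all above background in all 5 hearts. The cotransporter gene Slc12a2 was low in heart 7, at 5.53 against 7.19 to 7.41. Heart 7 also had the Gapdh control ratio of 5.69 and was lowest for 29.0% of all detected genes, and its part in the low value was not tested. Fhl2 was high in heart 10, at 8.18 against 7.66 to 7.79, and Fxyd1 was low in heart 6, at 10.75 against 11.11 to 11.23, and both were named after their values were seen.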

How the results depend on the processing

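The variance test called no potassium channel gene under the 15 alternatives run, of which 1 tested 7 of the genes, 1 tested their 90 probe sets and the others tested all 62, with a lowest adjusted p between 0.915 and 0.979 and 0 to 2 features at an unadjusted p under 0.05. The same 7 genes were detected with arrays unscaled, quantile normalized or at offsets of 1 and 64. These settings keep the order of values within an array, so the calls could hardly change. The count was 11 at the 90th and 3 at the 99th background percentile, 15 when 3 hearts sufficed and 11 with the background list without Prm1, Pomc and Abca4. All genes were then detected at 55.9%, 41.1%, 58.5% and 55.6%. At the 99th percentile Kcne1, Kcne3 and Kcnk3 stayed, and the voltage-gated, calcium-activated and inward rectifier families had 0 each. The calcium-activated family and the inward rectifiers had 2 each at the 90th percentile, with the changed list, when 3 hearts sufficed and without types _x_at and _s_at, and the inward rectifiers had 2 with probe sets averaged. When 3 hearts sufficed the voltage-gated family had 5, the tandem-pore family 2 and the accessory subunits 4. The count was 10 with probe sets averaged and 10 without types _x_at and _s_at, against 50.5% and 51.5% of all genes. Each setting gained Kcnj14, Kcnmb4 and Kcnn2, and averaging also gained Kcna4 and lost Kcnn4. The gained genes have 1 probe set each, so their own values were unchanged and the gains came from the changed background. Leaving out 1 heart, which makes the rule easier to meet, gave 8 to 9 detected genes, against 51.7% to 53.2% of all genes. The calcium-activated, inward rectifier and tandem-pore families then had 1 to 2 each. The voltage-gated family had 3 without heart 7, and the accessory subunits had 3 without heart 7 and without heart 8. The inward rectifiers gained Kcnj14 without heart 10. The counts of other potassium handling genes and the median SD kept within 1.5 times and 0.14 of their values. No paired analysis was possible because there is 1 group. Signals close to background limit the calls of genes that miss it by little, such as Kcnmb4 and Kcnj14.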
